A study of Mus musculus with 8 samples.

Results

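The carriers that move bile acids and biliary lipids into and out of hepatocytes were examined as 10 genes of the count table, chosen by name from 46078 genes: 3 for uptake from blood (Slc10a1, Slco1a1 and Slco1b2), 3 for export into bile (Abcb11, Abcb4 and Abcc2) and 4 for efflux back to blood (Abcc3, Abcc4, Slc51a and Slc51b). RNA was sequenced from 8 liver samples of fasted mice, 5 wild-type (WT) and 3 Rbfox2 knockout (Rbfox2 KO), all from mice that had drunk water with 30% (w/v) fructose for 22 weeks. By the study's methods, mice were 8 weeks old when the diets began, and males were used unless stated otherwise. Both genotypes carried Rbfox2 LoxP/LoxP alleles, and the WT mice were Alb_cre- whereas the Rbfox2 KO mice were Alb_cre+. The albumin promoter drives Cre in hepatocytes, so other liver cells of the Rbfox2 KO mice keep the splicing factor that Rbfox2 encodes. No animal without fructose was in the comparison, which therefore asks how carrier transcripts differ with hepatocyte Rbfox2 on 1 diet.

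Bile acids circulate between liver and gut. Hepatocytes take them up at the sinusoidal membrane, mainly through the sodium-dependent carrier NTCP and through organic anion transporting polypeptides, and pump them across the canalicular membrane into bile with ATP-driven exporters. A further set of carriers on the basolateral membrane returns bile acids and conjugates to blood and is known for its induction in cholestasis, when flow into bile is impaired.

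Rbfox2 itself was at 13.96, 20.5, 19.0, 17.9 and 23.2 CPM in WT 1 to 5 and at 6.84, 8.61 and 12.4 CPM in Rbfox2 KO 1 to 3. The groups did not overlap, as for 3.71% of all genes tested, and the Rbfox2 KO mean was 49.0% of the WT mean. These are RNA counts over the whole gene and do not measure protein. By western blot the study could not detect the RBFOX2 protein in livers of its knockout mice. CPM, the unit of level used here, is a count per 1000000 reads of its library after correction with factors from the trimmed mean of M-values (TMM). Libraries held 24829693 to 37823155 counts. Summed hepatocyte markers were between 68641 and 81540 CPM in all 8 samples, and summed cholangiocyte markers between 28.8 and 40.4 CPM. The 10 markers of pancreatic acinar cells summed to 424 CPM in Rbfox2 KO 1, to 9.71 CPM in WT 1 and to at most 0.266 CPM in the other 6 samples. Amy2a5, a pancreatic amylase, was the most abundant of them, at 250.2 CPM in Rbfox2 KO 1. The same sample was also lowest in summed pericentral hepatocyte markers, with 3711 CPM against 7208 to 8521 CPM elsewhere, and fitted changes of the carriers are given with and without it. Summed skeletal muscle markers were 226 CPM in WT 4, 314 CPM in WT 5 and 191 CPM in Rbfox2 KO 1, and 1.22 to 41.2 CPM in the other 5 samples. Summed periportal hepatocyte markers were 4812 and 5081 CPM in Rbfox2 KO 1 and Rbfox2 KO 3 and 3652 to 4191 CPM in WT, and summed Kupffer cell markers 283 and 295 CPM in these 2 samples and 209.5 to 243 CPM in WT. Without Cd5l, the most abundant Kupffer cell marker, Rbfox2 KO 1 was within the WT range, at 167.9 CPM against 136.8 to 168.1 CPM. Rbfox2 KO 3, at 190.2 CPM, was still above it. The part of these sums in the carrier levels was not tested.

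Per length, 2 uptake carriers led. Levels between genes were set side by side as TPM, in which counts are divided by the length of all exons of a gene and the genes of a sample then sum to 1000000. Over the 5 WT samples Slc10a1 had 312 ± 63.6 TPM (SD, n = 5) and Slco1b2 310.4 ± 35.4 TPM (SD, n = 5), and only 3 of 8 samples had more Slc10a1 than Slco1b2. A second tier held Abcb11 at 57.0 ± 10.9 TPM (SD, n = 5), Abcb4 at 51.6 ± 12.4, Abcc3 at 47.0 ± 16.2, Abcc2 at 46.7 ± 17.4 and Slco1a1 at 46.1 ± 17.2. Neighbours in this tier overlapped in their WT values and did not differ beyond their spread. Slco1b2 stood 5.44-fold above Abcb11 on the means, and Slco1a1 91.8-fold above Abcc4, without overlap of the WT samples in either step. Abcc4 at 0.503 ± 0.131 TPM (SD, n = 5) and Slc51b at 0.460 ± 0.495 TPM overlapped again, and Slc51a was listed at 0 in every sample.

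**Figure D1:**
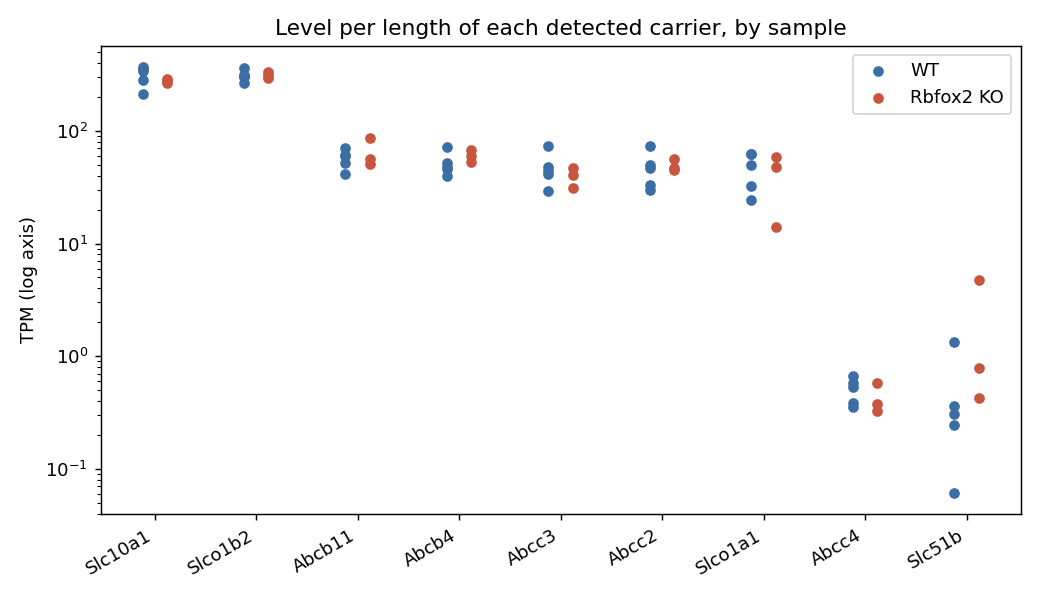
Level of each detected carrier in TPM on a log axis, with 1 point per sample, blue for WT and red for Rbfox2 KO, ordered by the WT mean. Slc10a1 and Slco1b2 lie near 310.4 TPM, 5 carriers follow between means of 46.1 and 57.0 TPM, and Abcc4 and Slc51b have means of 0.503 and 0.460 TPM.

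The order inside the second tier depended on which length was used. The alternative, chosen after the values were seen, was the length of the longest coding transcript in place of all exons. It was applied to the carriers alone, so its values are not TPM and serve only to order the carriers. On that length Slco1b2, at 463, came before Slc10a1, at 392, and Abcb4, at 119, came next. Slco1a1 had 62.3 and Abcc4 0.562. By function, uptake carriers summed to 668 ± 92.0 TPM (SD, n = 5) in WT livers and 633 ± 22.7 TPM (SD, n = 3) in Rbfox2 KO livers, canalicular exporters to 155 ± 36.5 and 174 ± 26.2 TPM, and basolateral efflux carriers to 48.0 ± 16.3 and 41.8 ± 9.69 TPM. Slco1b2 made up 46.6% ± 1.67 (SD, n = 5) of the uptake sum in WT livers and 49.6% ± 2.55 (SD, n = 3) in Rbfox2 KO livers. Each of the 3 sums differed between genotypes by less than its SD in WT, whereas the Slco1b2 share differed by more. Canalicular exporters came to 23.1% ± 3.05 (SD, n = 5) of the uptake sum in WT livers and 27.6% ± 5.10 (SD, n = 3) in Rbfox2 KO livers, also more than the SD in WT and less than that in Rbfox2 KO. Sums and shares are given without a test.

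No carrier passed an adjusted p of 0.05 between genotypes. The robust quasi-likelihood test of edgeR was fitted to 14654 genes, 9 of the 10 carriers among them, and called 0 of these 9, where it called 0% of all genes. The deleted gene was not called either. Rbfox2 had a log2 fold change (Rbfox2 KO minus WT) of -1.03 ± 0.21 (SE), with an edgeR unadjusted p of 0.000598 and an adjusted p of 0.328. Without Rbfox2 KO 1 these were -0.85, 0.00250 and 0.772 by edgeR. The DESeq2 Wald test, which called 59 of all genes, and limma-voom, which called 0, also called 0 of the carriers. At an unadjusted p under 0.05 edgeR called 1, Abcc3, or 11.1% of the tested carriers against 4.74% of all genes. None of the 9 had groups that did not overlap in CPM, against 3.71% of all genes. Fitted log2 fold changes (Rbfox2 KO minus WT) were negative for 7 carriers and positive for 2, with a median of -0.12 beside 0.00095 for all genes tested. That split was 5 and 4 when libraries were scaled by their totals, which moved the median of all genes to 0.12. It was 4 negative and 5 positive without Rbfox2 KO 1, where the median was 0.04. For 7 carriers the 95% interval lay wholly within a log2 fold change of 1 either way, and the exceptions were Slco1a1 and Slc51b. In bulk RNA, fewer cells of a type and less RNA per cell cannot be told apart. The labels number the samples of each genotype and do not say that each is a separate animal, so p-values measure the spread between these samples.

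**Figure D2:**
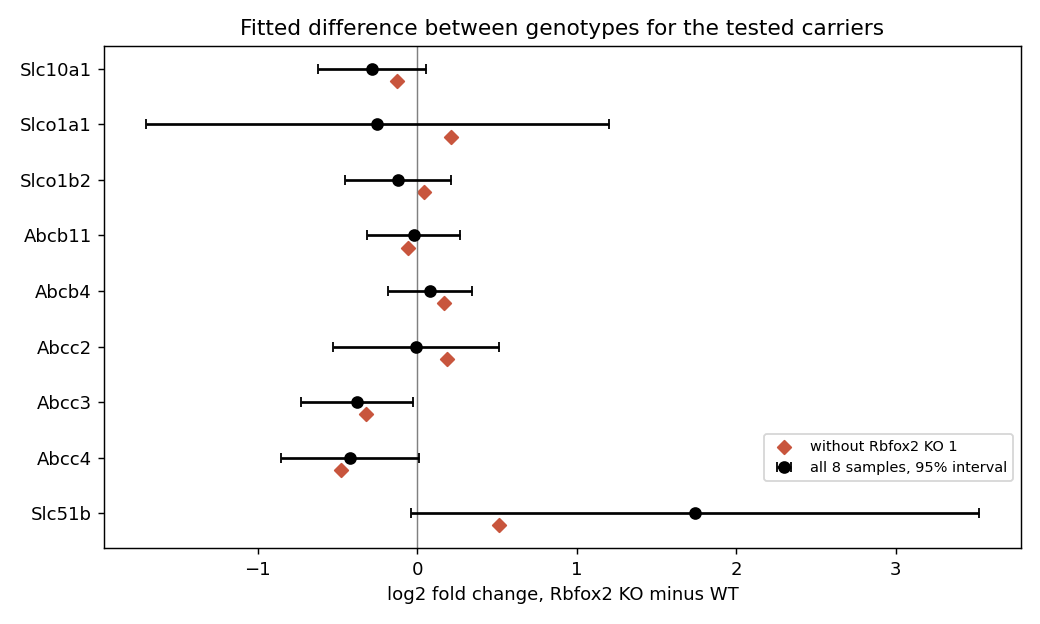
Fitted log2 fold change of the 9 tested carriers, Rbfox2 KO minus WT, in black with its 95% interval, and the estimate without Rbfox2 KO 1 as red diamonds. The interval excludes 0 for Abcc3 alone, and the estimate for Slc51b moves from 1.74 to 0.51 without that sample.

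Of the uptake carriers, Slc10a1 (ENSMUSG00000021135) encodes NTCP, the main sodium-dependent importer of conjugated bile acids. It is a protein-coding gene on the minus strand at chr12:80953183-80968705 of GRCm38. Slc10a1 was at 489, 472, 380.0, 401 and 411 CPM in WT 1 to 5 and at 269, 386 and 408 CPM in Rbfox2 KO 1 to 3. The other 2 Rbfox2 KO livers were within the WT range and Rbfox2 KO 1 was below it. For Slc10a1 the fitted log2 fold change of -0.28 ± 0.15 (SE) had an unadjusted edgeR p of 0.0958 and an adjusted p of 1.0, and it was -0.12 without Rbfox2 KO 1. The exact permutation test of the mean CPM, two-sided over 56 splits with a smallest possible p of 0.0179, gave p = 0.161 for Slc10a1.

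Slco1b2 (ENSMUSG00000030236), the mouse liver counterpart of the human OATP1B carriers, lies on the plus strand at chr6:141629518-141686646. It had 955, 971, 1050.5, 965 and 909.8 CPM in WT livers and 675, 1069.5 and 938 CPM in the Rbfox2 KO livers. Rbfox2 KO 1 was below all WT samples and Rbfox2 KO 2 above them. The log2 fold change of Slco1b2 was -0.12 ± 0.15 (SE; edgeR adjusted p = 1.0), or 0.04 without Rbfox2 KO 1. Among WT livers Slco1b2 was the steadiest of the carriers, with a coefficient of variation of 5.24%, lower than in all but 4.96% of the genes tested.

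Slco1a1 (ENSMUSG00000041698) encodes an organic anion carrier that is more abundant in livers of male than of female mice, and lies on the minus strand at chr6:141907282-141946962. Its levels were 81.5, 107, 264, 168 and 168 CPM in WT livers and 31.9, 201 and 165 CPM in the Rbfox2 KO livers. WT 3 was highest and Rbfox2 KO 1 lowest of all 8 samples, and the other 2 Rbfox2 KO livers were within the WT range. The WT coefficient of variation of Slco1a1 was 44.8%, at the 93.3rd percentile of genes tested, where counting error alone would give 1.46%. The log2 fold change of -0.25 ± 0.62 (SE; edgeR adjusted p = 1.0) had a 95% interval from -1.70 to 1.2, and it became 0.21 without Rbfox2 KO 1 and 0.02 without WT 3. Of the 50-base stretches of Slco1a1, 2.26% also occur in transcripts of Slco1a5, Slco1a4 and Gm6614, and how many of its reads fell there was not measured.

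Both Slco genes belong to a cluster on chromosome 6 whose other members did not follow Slco1a1 in every sample, and these neighbours were chosen after their values were seen. Slco1a4, which encodes a related organic anion carrier, was at 56.4, 68.7, 30.0, 30.4 and 69.0 CPM in WT livers and at 86.3, 47.0 and 59.2 CPM in the Rbfox2 KO livers. Thus Slco1a4 was highest in Rbfox2 KO 1, where Slco1a1 was lowest. Slco1a6 was at 1.10 CPM in Rbfox2 KO 1 and between 3.68 and 10.1 CPM in the other 7 samples. Slco1a5 stayed under 1 CPM throughout.

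Other sex-biased transcripts were set beside Slco1a1. All 8 samples had the sex chromosome transcripts of male livers. Xist, which is expressed in females, was at 0 to 0.0786 CPM, and Ddx3y of the Y chromosome at 44.9 to 54.8 CPM. The 10 male-biased liver genes on the list summed to 4090, 4084, 9779, 5668 and 3016 CPM in WT 1 to 5 and to 5248, 6747 and 5866 CPM in Rbfox2 KO 1 to 3, and the 14 female-biased genes summed to 213, 228, 106, 154 and 258 CPM and to 147, 209 and 160 CPM. WT 3 had the highest male-biased sum, the lowest female-biased sum and the highest Slco1a1. Rbfox2 KO 1, lowest in Slco1a1, was within the WT range of both sums, but the male-biased sum was mostly the urinary protein gene Mup20, at 4596 CPM in that sample. Without Mup20 the male-biased genes summed to 651 CPM in Rbfox2 KO 1, to 978 to 2042 CPM in WT and to 1854 and 1518 CPM in Rbfox2 KO 2 and 3. In Rbfox2 KO 1, 4 of the 10 genes were below every WT sample, named after their values were seen: Elovl3 at 66.6 CPM, Cyp2d9 at 148 CPM, Hsd3b5 at 0.314 CPM and Cyp7b1 at 49.6 CPM. Selenbp2 was above the WT range and the other 5 were within it. All 21 Mup genes together took 6.54% of counts in that sample and 17.8% to 35.3% in WT. The part of these transcripts in the spread of Slco1a1 was not tested. None of the 10 male-biased genes had an unadjusted edgeR p under 0.05, and 1 of 12 tested female-biased genes (8.33%, against 4.74% of all genes) did: Cux2, a transcription factor, with 2.96 CPM in Rbfox2 KO 3 and 0.177 to 0.443 CPM elsewhere.

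The bases before the transcription start of Slco1a1, Slco1b2 and Slc51b are shown because these carriers had the widest and the narrowest spread among the 5 WT livers. They are the 250 bases upstream of the RefSeq start on GRCm38.p6, written 5′ to 3′ on the strand of the gene: chr6:141946963-141947212 on the minus strand for Slco1a1, chr6:141629268-141629517 on the plus strand for Slco1b2, and chr9:65422774-65423023 on the minus strand for Slc51b. Capitals mark matches, on either strand, to AGGTCA (the half-site bound by many nuclear receptors), TTCNNNGAA (bound by STAT factors) and TATAAA. In the GENCODE annotation Slc51b starts at chr9:65422955, inside its window. Part of that window, with its TTCNNNGAA match, thus lies within the gene as GENCODE places it.
Slco1a1: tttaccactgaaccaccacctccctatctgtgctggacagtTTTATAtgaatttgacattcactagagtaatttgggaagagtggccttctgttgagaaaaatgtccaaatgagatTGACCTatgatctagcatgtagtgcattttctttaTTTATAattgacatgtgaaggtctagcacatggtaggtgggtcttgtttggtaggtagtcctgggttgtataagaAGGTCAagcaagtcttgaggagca
Slco1b2: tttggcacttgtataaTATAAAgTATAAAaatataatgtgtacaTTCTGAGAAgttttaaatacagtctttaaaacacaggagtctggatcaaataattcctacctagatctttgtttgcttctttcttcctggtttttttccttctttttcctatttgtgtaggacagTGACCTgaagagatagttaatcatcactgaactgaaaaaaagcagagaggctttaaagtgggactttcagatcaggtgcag
Slc51b: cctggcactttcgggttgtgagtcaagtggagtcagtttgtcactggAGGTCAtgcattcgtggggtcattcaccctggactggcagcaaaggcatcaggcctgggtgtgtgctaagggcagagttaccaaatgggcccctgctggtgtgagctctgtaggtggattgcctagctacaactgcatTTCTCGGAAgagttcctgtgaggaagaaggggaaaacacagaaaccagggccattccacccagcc

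Slco1a1 held AGGTCA at 24 to 19 bases and, on the other strand, at 134 to 129 bases before the start, Slco1b2 on the other strand at 81 to 76 bases, and Slc51b at 203 to 198 bases. TTCNNNGAA lay 206 to 198 bases before the RefSeq start of Slco1b2 and 65 to 57 bases before that of Slc51b. RefSeq gave 11 windows for 9 of the 10 carriers. Those of Abcc2 and Abcb4 also run past the start of the gene in GENCODE, and the matches of Abcc2 lie in the part within its gene. A further window each of Slc10a1 (chr12:80968080-80968329) and Abcc4 (chr14:118676932-118677181) lies wholly inside its gene there. The only AGGTCA match of Slc10a1 is in that further window. AGGTCA was found in 7 of these 11, for Abcb11, Abcc2, Slc10a1, Slc51a, Slc51b, Slco1a1 and Slco1b2, and in 14.0% of all 32851 windows of this length. TTCNNNGAA was in 3 of the 11, for Slc10a1, Slc51b and Slco1b2, and in 7.02% of all windows. TATAAA was in 3 (Slc10a1, Slco1a1 and Slco1b2) and in 12.4% of all. TGACNNNGC, the core of the antioxidant response element, was in 3, of Abcc2 and Abcc4, and in 10.2% of all. These 3 include the further window of Abcc4, inside its gene. CAAAGTCCA, a sequence bound by HNF4, was in none of the 11 and in 0.383% of all. No match overlapped another in these windows. The matches describe letters in these windows and show no binding.

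The canalicular exporters follow. Abcb11 (ENSMUSG00000027048; minus strand, chr2:69238282-69342616) encodes BSEP, the ATP-driven pump that moves bile salts into bile. It was at 168, 227, 173, 202 and 158 CPM in WT livers and at 191, 169.5 and 189 CPM in the Rbfox2 KO livers, all 3 of which were within the WT range. Its log2 fold change was -0.02 ± 0.13 (SE; edgeR adjusted p = 1.0) with a 95% interval from -0.31 to 0.27. It was -0.06 without Rbfox2 KO 1, and with library totals the sign was positive, at 0.10. Abcb11 overlaps Gm13613 and Gm13614 over 155 bases on the opposite strand.

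Abcb4 (ENSMUSG00000042476; plus strand, chr5:8893717-8959231) encodes MDR2, a flippase that brings phosphatidylcholine into bile. It was at 274, 305, 301, 289 and 346 CPM in WT livers and at 276, 325 and 361 CPM in the Rbfox2 KO livers. Only Rbfox2 KO 3 was outside the WT range, above it. Abcb4 had a log2 fold change of 0.08 ± 0.12 (SE; edgeR adjusted p = 1.0), with a 95% interval from -0.18 to 0.34, and 0.17 without Rbfox2 KO 1. Of its 50-base stretches, 3.42% are shared with Abcb1a and Abcb1b.

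Abcc2 (ENSMUSG00000025194; plus strand, chr19:43782192-43840740) encodes MRP2, the canalicular exporter of bilirubin glucuronides and other conjugates. It was at 161, 269, 227, 259 and 319 CPM in WT livers and at 173, 251 and 313 CPM in the Rbfox2 KO livers. Each Rbfox2 KO liver was within the WT range. Abcc2 spread more among WT livers than the other exporters, with a coefficient of variation of 23.7% against 15.3% for Abcb11 and 8.83% for Abcb4. WT 1 and Rbfox2 KO 1 were the lowest samples of their groups. These are also the 2 samples with pancreatic transcripts, whose part in the level of Abcc2 was not tested. The log2 fold change of Abcc2 was -0.0065 ± 0.23 (SE; edgeR adjusted p = 1.0), 0.19 without Rbfox2 KO 1 and 0.06 without both of these samples.

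**Figure D3:**
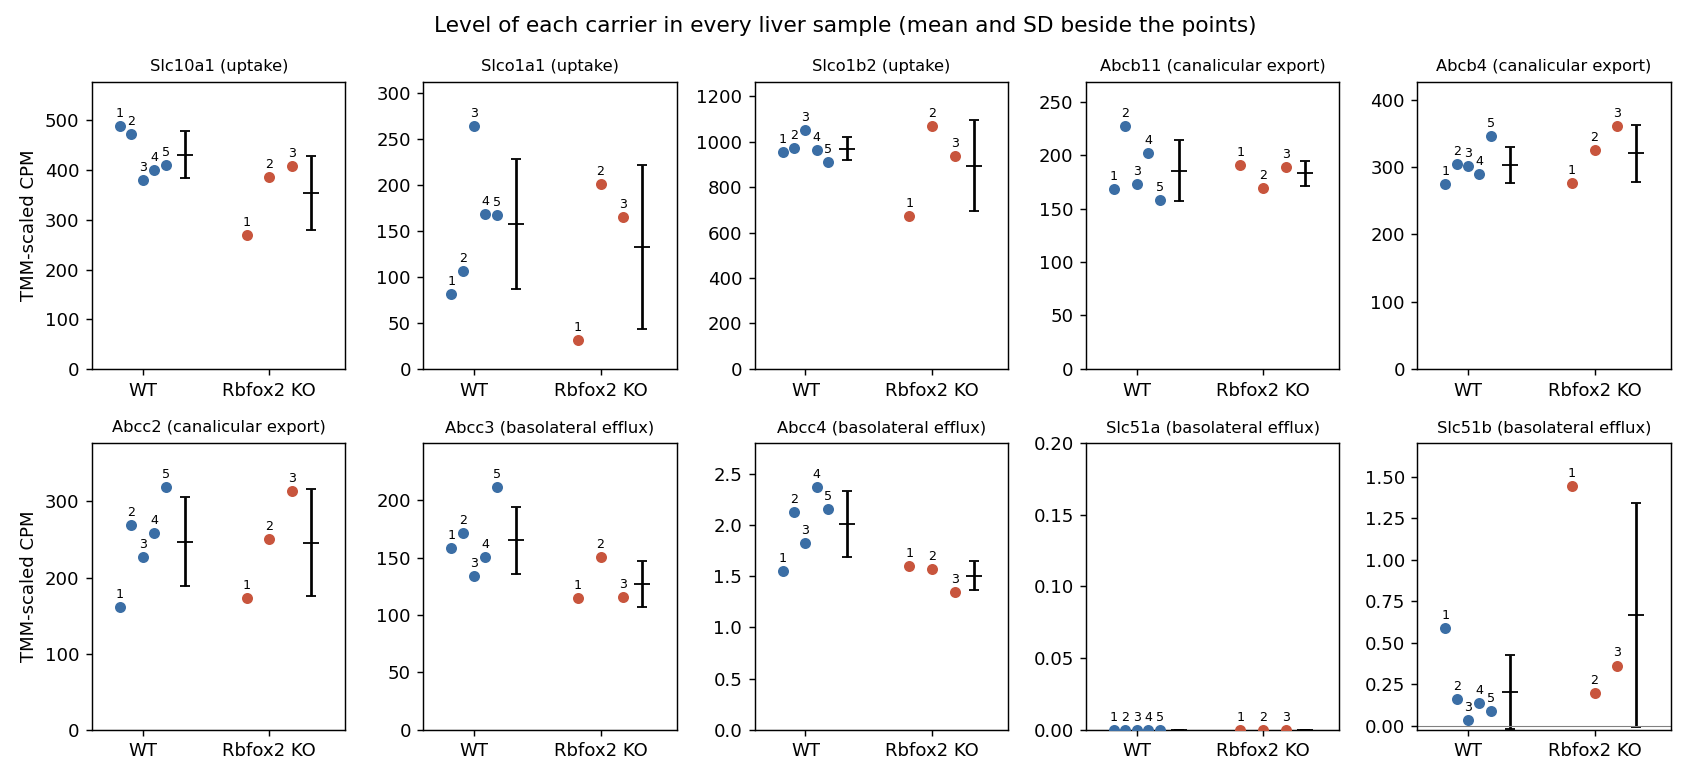
TMM-scaled CPM of the 10 carriers in every sample, blue for WT and red for Rbfox2 KO, each point marked with its sample number and the mean and SD drawn beside the points. The groups overlap in all panels, Slc51a is at 0 throughout, and Rbfox2 KO 1 is below all WT samples for Slc10a1, Slco1a1, Slco1b2 and Abcc3.

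Of the basolateral efflux carriers, Abcc3 (ENSMUSG00000020865; minus strand, chr11:94343295-94392997) encodes MRP3, which exports glucuronide conjugates and bile acids to blood. It was at 159, 171, 134, 151 and 212 CPM in WT livers and at 115, 150.3 and 116 CPM in the Rbfox2 KO livers. In CPM, Rbfox2 KO 1 and Rbfox2 KO 3 were below all WT samples, and Rbfox2 KO 2 was within their range. In TPM all 3 were within it. The means were 165 ± 29.3 CPM (SD, n = 5) and 127 ± 20.1 CPM (SD, n = 3). The log2 fold change of -0.38 ± 0.16 (SE) had a 95% interval from -0.73 to -0.03, an edgeR unadjusted p of 0.0368 and an adjusted p of 1.0, so Abcc3 did not pass the test across all genes. The two-sided exact permutation p of its mean CPM was 0.0893. The log2 fold change of Abcc3 was negative under every alternative, from -0.52 to -0.27 with one sample left out. It was -0.37 without WT 2 (edgeR unadjusted p = 0.0659) and -0.27 without WT 5 (edgeR unadjusted p = 0.0634). Without Rbfox2 KO 1 it was -0.32 (edgeR unadjusted p = 0.115), and without Rbfox2 KO 3 -0.32 (edgeR unadjusted p = 0.119). With library totals it was -0.30 (edgeR unadjusted p = 0.175), and without both WT 1 and Rbfox2 KO 1 -0.34 (edgeR unadjusted p = 0.119). The edgeR unadjusted p stayed under 0.05 without WT 1 (0.0418), WT 3 (0.0185), WT 4 (0.0410) or Rbfox2 KO 2 (0.0141). With one sample left out, the lowest edgeR adjusted p was 0.588.

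Abcc4 (ENSMUSG00000032849; minus strand, chr14:118482692-118706219) encodes MRP4, which exports cyclic nucleotides and, together with glutathione, bile acids. Its counts were 42, 66, 52, 68 and 73 in WT livers and 51, 40 and 48 in Rbfox2 KO livers, or 1.55, 2.13, 1.83, 2.38 and 2.16 CPM and 1.6, 1.57 and 1.34 CPM. Only Rbfox2 KO 3 was below the WT range, although all 3 Rbfox2 KO livers were below 4 of the 5 WT livers. Abcc4 had a log2 fold change of -0.42 ± 0.20 (SE), an unadjusted edgeR p of 0.0564 and an adjusted p of 1.0, and the change was -0.47 without Rbfox2 KO 1. Leaving out both samples with pancreatic transcripts gave -0.55, with an edgeR unadjusted p of 0.0309 and adjusted p of 0.980. Over all alternatives the adjusted p of Abcc4 ran from 0.793 to 1.0. Counting error alone would give Abcc4 a coefficient of variation of 12.9% among WT livers, and 16.0% was found.

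Slc51a and Slc51b encode the α and β chains of the organic solute transporter, which moves bile acids across the basolateral membrane as a pair. Slc51a (ENSMUSG00000035699; minus strand, chr16:32474504-32487879) had 0 counts in all 8 samples, which allows a level of up to 3 counts, or 0.0839 to 0.118 CPM by sample. Slc51b (ENSMUSG00000053862; minus strand, chr9:65412714-65422955) had 16, 5, 1, 4 and 3 counts in WT and 46, 5 and 13 in Rbfox2 KO livers. As CPM these were 0.591, 0.162, 0.0351, 0.140 and 0.0887 in WT livers and 1.44, 0.197 and 0.364 in Rbfox2 KO livers. Rbfox2 KO 1 was above all WT samples and WT 1 was the highest WT sample, and the other 2 Rbfox2 KO livers were within the WT range. These 2 highest samples are the ones with pancreatic transcripts, and the part of those transcripts in the Slc51b counts was not tested. Slc51b had a log2 fold change of 1.74 ± 0.80 (SE) with a 95% interval from -0.04 to 3.52, an edgeR unadjusted p of 0.0542 and an adjusted p of 1.0. Without Rbfox2 KO 1 it was 0.51, with an edgeR unadjusted p of 0.548, and without WT 1 the gene no longer passed the filter on low counts. Slc51a overlaps Pcyt1a over 567 bases and Slc51b overlaps Rasl12 over 91 bases, each on the opposite strand.

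Across the 9 tested carriers, Rbfox2 KO 1 left the WT range most often, for 5 of them. It was below the WT range for 4 carriers (Slc10a1, Slco1a1, Slco1b2 and Abcc3) and above it for Slc51b. Rbfox2 KO 2 was outside the range for 1, Slco1b2, above it, and Rbfox2 KO 3 for 3, with Abcc3 and Abcc4 below and Abcb4 above. These positions are in CPM and depend on the TMM factors, 1.29 in Rbfox2 KO 1 and 0.821 to 1.13 in WT. In TPM, without these factors, Rbfox2 KO 1 was within the WT range for Slc10a1 (282, WT 214 to 367) and Slco1b2 (316, WT 264 to 363). So it was for Abcc3 (46.6, WT 29.0 to 73.0). It stayed below that range for Slco1a1 and above it for Slc51b, and was also above it for Abcb11 (85.6, WT 41.6 to 70.6). In TPM Rbfox2 KO 2 was within the WT range for Slco1b2 (331). So was Rbfox2 KO 3 for Abcc3 (31.4) and Abcb4 (59.4, WT 39.7 to 72.4), but it stayed below for Abcc4 (0.324, WT 0.354 to 0.664). On the scale of log2(CPM + 0.5), Slco1a1 was 2.17 below the WT mean in Rbfox2 KO 1 and 0.47 and 0.18 above it in Rbfox2 KO 2 and 3. How often each sample left the WT range was not counted over all tested genes. Rbfox2 KO 1 was also below that range in CPM for 6 of 8 pericentral hepatocyte markers. Of 15 genes of bile acid synthesis, 9 were below it in Rbfox2 KO 1, 2 above and 4 within. The counts above are therefore not shown to be particular to the carriers.

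**Figure D4:**
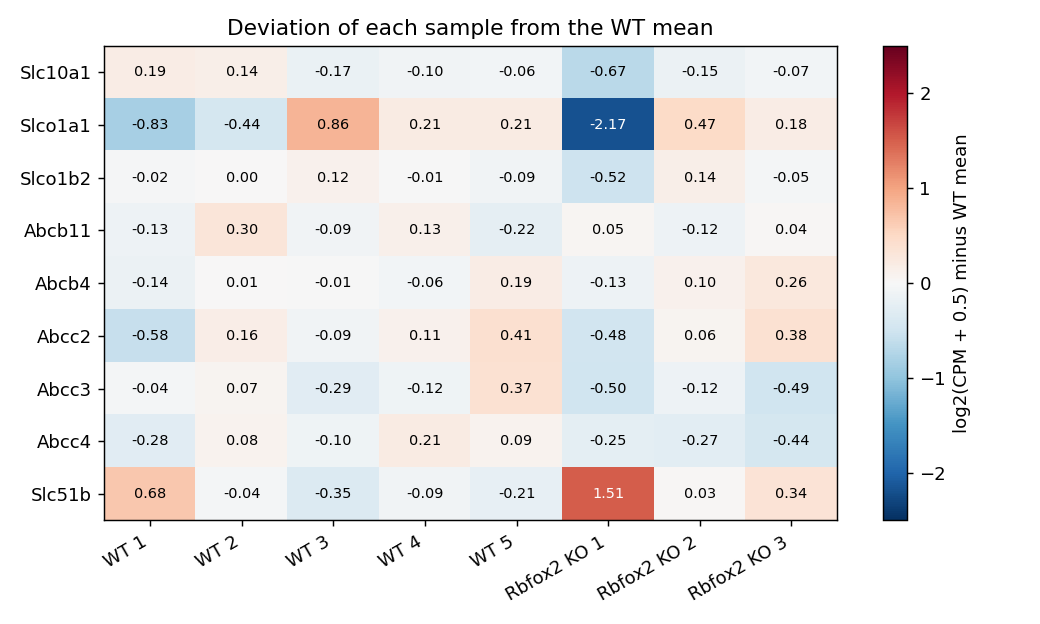
Difference of each sample from the WT mean for the 9 tested carriers, on the scale of log2(CPM + 0.5), red for higher and blue for lower. Rbfox2 KO 1 holds the lowest value of Slco1a1, -2.17, and the highest of Slc51b, 1.51.

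Carriers were then compared in pairs over the 8 samples. Of 36 pairs, 24 had a positive correlation, 4 had a permutation p under 0.05 and 0 passed after Benjamini-Hochberg adjustment. Abcb4 and Abcc2, both of the canalicular membrane, had r = 0.88 (exact permutation p = 0.0065, adjusted p = 0.117) and rho = 0.86 (exact permutation p = 0.0107, adjusted p = 0.386). Their r was 0.79 without Rbfox2 KO 3 and WT 5, the samples farthest from the median of Abcb4, 0.91 with genotype means removed and 0.76 with library totals. Slco1a1 and Slc51b had r = -0.92 (exact permutation p = 0.00575, adjusted p = 0.117) and rho = -0.79 (exact permutation p = 0.0279, adjusted p = 0.441), and r was -0.95 with genotype means removed and -0.93 with library totals. It was -0.73 without Rbfox2 KO 1 and -0.37 without Rbfox2 KO 1 and WT 1, the samples farthest from the median of Slco1a1, so the relation rests on those samples. Slco1a1 and Slco1b2 had r = 0.88 (exact permutation p = 0.015, adjusted p = 0.180) and rho = 0.69 (exact permutation p = 0.0694, adjusted p = 0.598), with r of 0.55 without the same 2 samples and 0.34 with library totals. Slco1b2 and Slc51b had r = -0.84 (exact permutation p = 0.0356, adjusted p = 0.321) and rho = -0.43 (exact permutation p = 0.299, adjusted p = 0.962), with r of -0.37 without Rbfox2 KO 1 and Rbfox2 KO 2.

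For each tested carrier the most alike of the other 14653 genes was found by the highest Pearson r of log2 CPM over the 8 samples, given without a test. These were Dpys for Slc10a1 (r = 0.96, rho = 0.55), Gm26905 for Slco1a1 (0.98, 0.81) and Ces3a for Slco1b2 (0.99, 0.93). For the exporters they were Tjap1 for Abcb11 (r = 0.91, rho = 0.88), Gpatch8 for Abcb4 (0.98, 0.98) and Ppp2r5e for Abcc2 (0.997, 1). For the efflux carriers they were Slco2b1, itself an organic anion carrier, for Abcc3 (r = 0.96, rho = 0.90), C4a for Abcc4 (0.99, 0.95) and Nat10 for Slc51b (0.99, 0.90). All 8 points share the same libraries and scaling.

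Genes around the carriers were given by list, and none passed an edgeR adjusted p of 0.05. Their counts at an unadjusted p under 0.05 stand beside the 4.74% of all genes. Of 18 other carriers of bile acids, organic ions and biliary lipids, 0 had an unadjusted edgeR p under 0.05, 12 had positive and 6 negative log2 fold changes, and the smallest p belonged to Slco2a1, a prostaglandin carrier, with a log2 fold change of 0.28. Of 10 scaffold and trafficking genes of the canalicular membrane 0 reached that level, and the median log2 fold change was -0.04. Of 15 genes of bile acid synthesis 1 (6.67%) did, Cyp2c70, which makes muricholic acids in mice, at 12.1, 16.7, 12.6, 14.9 and 10.6 CPM in WT livers and at 43.9, 16.8 and 17.2 CPM in the Rbfox2 KO livers. The groups did not overlap for Cyp2c70, as for 3.71% of all genes, and its log2 fold change was 0.96 ± 0.32 (SE; edgeR unadjusted p = 0.0146, adjusted p = 0.882), or 0.34 without Rbfox2 KO 1 (edgeR unadjusted p = 0.0690). Cyp7a1, the rate-limiting enzyme of the classic route, was at 42.8 to 116 CPM in WT livers and 35.9 to 70.4 CPM in the Rbfox2 KO livers.

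Among 14 tested regulators 2 (14.3%) had an unadjusted edgeR p under 0.05, both with positive log2 fold changes. Fgfr4, the hepatocyte receptor for the gut hormone FGF15, was at 15.5 to 18.7 CPM in WT livers and 20.8 to 25.4 CPM in the Rbfox2 KO livers (log2 fold change 0.44 ± 0.10 SE; edgeR adjusted p = 0.415), or 0.35 without Rbfox2 KO 1 (edgeR unadjusted p = 0.00943). Nr1i2, which encodes the xenobiotic receptor PXR, was at 60.1 to 64.3 CPM and 69.9 to 72.5 CPM (log2 fold change 0.20 ± 0.08 SE; edgeR adjusted p = 0.954), or 0.20 without Rbfox2 KO 1 (edgeR unadjusted p = 0.0577). Nr1h4, which encodes the bile acid receptor FXR, was at 55.7 CPM in Rbfox2 KO 1 and at 78.1 to 100.2 CPM in the other 7 samples. Of 9 tested targets of NRF2 and CAR 2 (22.2%) had an unadjusted edgeR p under 0.05, Hmox1, heme oxygenase, with 29.9 CPM in Rbfox2 KO 1 and 14.4 to 18.5 CPM elsewhere, and Cyp2c55, with 2.45 CPM in that sample and at most 1.02 CPM elsewhere. Without Rbfox2 KO 1 their unadjusted edgeR p was 0.222 for Hmox1 and 0.413 for Cyp2c55.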

How the data were processed

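Poly(A)-selected liver RNA of 5 WT and 3 Rbfox2 KO samples was sequenced. The authors deposited unnormalised counts for each Ensembl gene, obtained by aligning reads to mouse GRCm38 with TopHat2 2.0.11 and counting with featureCounts, per the labels and methods. Use of strand in counting and the handling of multiply aligned reads were not given in the sources used here, so counts of overlapping and near-identical genes are uncertain. Symbols, exon lengths and coordinates were taken from GENCODE M21 of the same build.

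Genes passing filterByExpr (14654 of 46078) were scaled by TMM and tested with edgeR 4.0.16 (R 4.3.3) by its robust quasi-likelihood test on genotype, with Benjamini-Hochberg adjustment at 0.05, and 95% intervals. Single values had two-sided exact permutation tests over 56 splits, and correlations exact permutations on log2(CPM + 0.5). Permutation p-values of the genotype comparison were left unadjusted, and those of correlations were adjusted over 36 pairs. DESeq2 1.42.0, limma-voom 3.58.1, other scalings and filters, a replicate block and leaving out each sample were alternatives. Scripts were tested on simulated data. Total counts limit precision, and floors of 3 counts cover counting error only.

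Groups came from the labels, which give no batch. The carriers and lists were chosen with earlier results of these data known. Named were all carriers, up to 3 genes of each list with the smallest p, the most alike gene of each carrier, Rbfox2, Xist, and markers whose sum stood apart.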

Additional observations from a re-analysis of the deposited data

Results flagged for a closer look

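Slc51b in WT 1, at 0.591 CPM, lay far from the other 4 WT samples, of which the next was at 0.162 CPM. Summed pancreatic acinar markers in WT 1, at 9.71 CPM, were likewise far above the group, with the next WT sample at 0.266 CPM. These were 2 of 30 values examined in the WT group, where chance gives about 1 in 20. Summed pancreatic acinar markers reached 424 CPM in Rbfox2 KO 1, above the WT samples, a signal outside the carriers themselves. WT 1 and Rbfox2 KO 1 also had the highest Slc51b of their groups, and the part of pancreatic transcripts in it was not tested.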

How the results depend on the processing

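With 3 Rbfox2 KO livers, no carrier passed an adjusted p of 0.05 or 0.1 under edgeR, and none passed 0.05 with DESeq2, limma-voom, the other scalings, filters and fits, or with any sample left out (range 0 to 0). The number at an unadjusted p under 0.05 was 1 by edgeR, 0 with library totals, 2 with the DESeq2 Wald test (Abcc3 and Slc51b), and 0 to 2 with one sample left out. The cause was not tested. The median log2 fold change of the carriers ranged from -0.27 without Rbfox2 KO 2 to 0.043 without Rbfox2 KO 1 when one sample was left out, and was -0.0191 without both WT 1 and Rbfox2 KO 1, an alternative chosen after the data were seen.

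Directions turned for 5 carriers: Slco1a1, Slco1b2, Abcb11, Abcb4 and Abcc2. Abcc2 had a log2 fold change of 0.0466 with library totals, 0.0072 with no filter on low counts and 0.065 without both WT 1 and Rbfox2 KO 1, and Abcb11 had 0.10 with library totals. The difference in mean CPM became 13.5 for Abcb11 and 7.87 for Abcc2 with library totals. Without both samples Slco1a1 had 0.0468 and Slco1b2 0.0365. With one sample left out, log2 fold changes ranged from -0.68 to 0.21 for Slco1a1, -0.27 to 0.043 for Slco1b2, -0.0736 to 0.0621 for Abcb11, -0.0131 to 0.17 for Abcb4 and -0.22 to 0.19 for Abcc2. Slc51b could not be fitted without WT 1, with both samples left out or with a filter of 1 CPM in 3 samples.

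Sample numbers occur in both genotypes but nothing in the labels pairs them, and deviations of same-numbered samples correlated at 0.251, 0.0510 and 0.172. With the replicate block 0 carriers passed the adjusted and 1 the unadjusted threshold, the median was -0.17 and Abcc2 turned to 0.16.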
